A study of Mus musculus with 6 samples.

Results

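A set of 1122 open chromatin regions was wider in adult neural stem cell cultures after mitogens were removed than before. They were chosen by their measured lengths. Overlapping ATAC-seq peaks of all 6 libraries were merged into 116783 regions on chromosomes 1 to 19, of which 39088 held a peak in every library and are called shared. In each shared region the peak lengths of a library were summed, and a region was kept when the shortest of the 3 differentiating libraries was at least 25% longer than the longest of the 3 proliferating libraries. The ratio of these 2 lengths is called the margin. The rule kept 2.87% of the shared regions, and the mirrored rule kept 1107 regions that were narrower, or 2.83%. The lengths of the regions below are therefore a description of the choice and carry no test.

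The cells were neural stem and progenitor cells (NSCs and NPCs) from the subependymal zone (SEZ) of mice aged 10 weeks, grown as cultures from the brain tissue. All 6 libraries came from cells that lacked Srr2, a Sox2 enhancer removed with CRISPR-Cas9 (Srr2del/del), so that both states shared the deletion and wild-type cells were not analysed here. Proliferating cultures (PROLIF) had 2 days in vitro (DIV) on Matrigel with FGF. Differentiating cultures (DIFF) had 2 DIV followed by 1 day without mitogens in 2% fetal bovine serum, so that mitogen loss, serum and the extra day cannot be told apart. Each state had replicates 1, 2 and 4. The labels do not say whether the same number marks the same culture. As a check of the cell type, all 12 neural stem and progenitor genes examined and all 5 astrocyte genes had a peak within 3 kb of a start site in every library. The same held for 2 of 5 neuronal, 2 of 5 oligodendrocyte, 2 of 7 microglial, 2 of 6 endothelial and 1 of 6 pericyte and fibroblast genes. Genes with no such peak in any library were Cx3cr1, Itgam and Ptprc of microglia and Cdh5, Cldn5 and Tek of endothelium. The same held for the neuronal Dcx, the oligodendrocyte genes Sox10 and Mag, and Col1a2 and Lum of the last list. Other genes of the microglial and endothelial lists went the other way. P2ry12, Csf1r, Flt1 and Kdr had a peak in all 6 libraries, and Aif1 and Tmem119 in 5.

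ATAC-seq uses a transposase that inserts adapters into DNA not covered by nucleosomes. A peak marks such a stretch, usually a promoter or an enhancer that proteins hold open, and its length is the stretch over which the signal stayed above the threshold of the caller. NSCs depend on FGF and EGF for division. When these are withdrawn the cells leave the cell cycle and start to form astrocytes, neurons or oligodendrocytes. Nuclear factor I (NFI) proteins take part in the onset of glial genes, AP-1 is the FOS and JUN dimer that answers growth factor signals, and proneural bHLH factors bind E-boxes.

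A longer peak can also be called where the library is deeper. The depth could be followed through the background pileup, the number of reads the caller expected by chance, solved from the fold enrichment and p of each peak. It was 2.97, 2.94 and 2.85 reads in PROLIF replicates 1, 2 and 4, and 3.63, 2.96 and 6.01 reads in DIFF replicates 1, 2 and 4. DIFF replicate 4 stood apart as the deepest library, and its list was the longest, with 88039 peaks against 60006 to 82741 in the other libraries. The part of depth in the results below was not tested beyond the values given beside them. In both libraries of replicate 1, 6 of 2072 windows of 1 Mb, all 6 on chromosome 10, held at least 2 times the share of peaks of the other replicates. None of the 1122 regions lay in those windows, which held 106 shared regions.

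Of the 10 regions with the largest margin, 9 had a summit window outside exons, and the 6 of these windows that hold a marked site are printed. The other windows, of the Tgm2, Myl3 and Limch1 regions, hold none of the marked sites. Each line gives 300 bases around the DIFF summit (GRCm38, plus strand). Capitals mark the NFI site TTGGCA, a single arm of the palindrome that NFI dimers bind, the AP-1 site TGACTCA, the SOX site ACAAAG or ACAATG and the E-boxes CAGCTG and CAGATG, on either strand.
Zwint region, chr10:72071220-72071519: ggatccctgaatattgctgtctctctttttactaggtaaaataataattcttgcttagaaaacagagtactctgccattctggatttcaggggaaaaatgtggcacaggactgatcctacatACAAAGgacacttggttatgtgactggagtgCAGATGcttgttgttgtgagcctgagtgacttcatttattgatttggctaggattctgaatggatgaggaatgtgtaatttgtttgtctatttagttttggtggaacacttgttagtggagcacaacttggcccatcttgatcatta
Chst10 region, chr1:38877006-38877305: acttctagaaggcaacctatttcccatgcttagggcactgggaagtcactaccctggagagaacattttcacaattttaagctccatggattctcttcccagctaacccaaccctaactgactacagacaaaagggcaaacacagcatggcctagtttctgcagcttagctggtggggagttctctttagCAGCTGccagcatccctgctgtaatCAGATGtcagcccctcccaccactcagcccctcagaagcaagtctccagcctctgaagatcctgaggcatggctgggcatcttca
Kctd5 region, chr17:24068320-24068619: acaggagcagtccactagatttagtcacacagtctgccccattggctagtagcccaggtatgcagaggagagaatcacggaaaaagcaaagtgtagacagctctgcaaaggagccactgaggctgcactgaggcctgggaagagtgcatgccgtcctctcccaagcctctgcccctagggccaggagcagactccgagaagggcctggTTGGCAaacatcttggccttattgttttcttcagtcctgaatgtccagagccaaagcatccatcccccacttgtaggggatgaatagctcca
Ephb1 region, chr9:102181894-102182193: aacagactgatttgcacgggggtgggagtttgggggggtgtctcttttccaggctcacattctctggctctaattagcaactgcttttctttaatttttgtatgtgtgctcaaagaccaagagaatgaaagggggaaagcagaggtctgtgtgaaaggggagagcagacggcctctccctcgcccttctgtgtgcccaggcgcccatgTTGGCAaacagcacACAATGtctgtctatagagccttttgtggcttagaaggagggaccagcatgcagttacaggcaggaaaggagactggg
Galnt10 region, chr11:57600735-57601034: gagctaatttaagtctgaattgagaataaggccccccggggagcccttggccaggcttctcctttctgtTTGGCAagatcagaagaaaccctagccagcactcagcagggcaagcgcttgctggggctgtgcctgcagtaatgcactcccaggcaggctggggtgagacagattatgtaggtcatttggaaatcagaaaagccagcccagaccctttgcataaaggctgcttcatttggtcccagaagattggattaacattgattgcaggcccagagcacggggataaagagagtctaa
Dlgap1 region, chr17:70363653-70363952: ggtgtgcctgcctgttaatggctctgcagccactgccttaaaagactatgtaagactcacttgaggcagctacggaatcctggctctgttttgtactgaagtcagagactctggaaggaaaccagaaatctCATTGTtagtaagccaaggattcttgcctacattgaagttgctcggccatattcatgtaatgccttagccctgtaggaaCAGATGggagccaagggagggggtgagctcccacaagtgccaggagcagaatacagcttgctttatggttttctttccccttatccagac

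The regions are named by the nearest protein-coding gene. In the Zwint window 54 of the 300 bases lay in a peak of all 6 libraries, and 157 lay in a peak of all DIFF libraries and of no PROLIF library. In the Chst10, Kctd5, Ephb1 and Galnt10 windows the bases open in DIFF libraries only numbered 115, 170, 105 and 134. The Dlgap1 window had 118 bases open in all 6 libraries and 4 in DIFF libraries only. Of the 9 windows outside exons, an NFI site stood in 3 (Kctd5, Ephb1 and Galnt10), a SOX site in 3 (Zwint, Ephb1 and Dlgap1), and an AP-1 site in none.

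**Figure D1:**
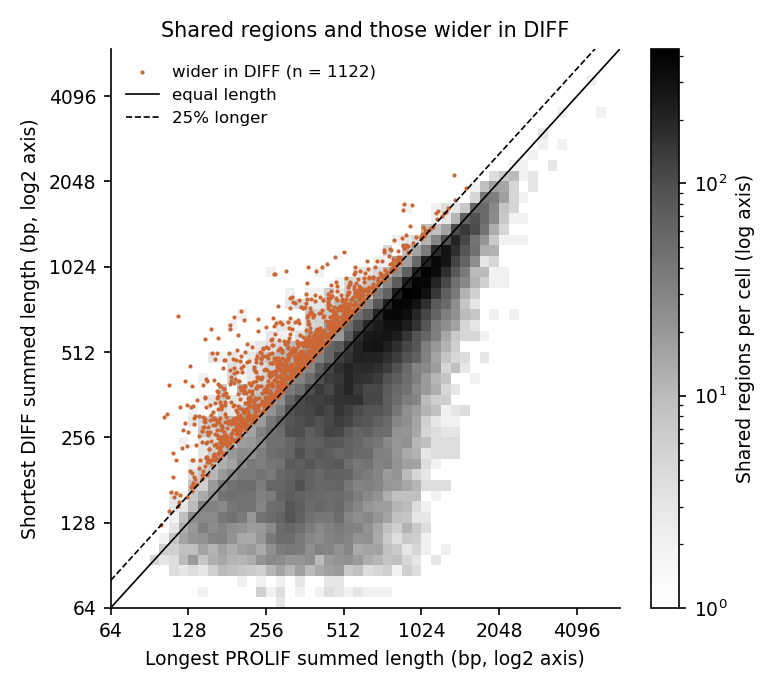
Length of each shared region, with the longest PROLIF summed length (bp, log2 axis) against the shortest DIFF summed length (bp, log2 axis). Grey cells count all 39088 shared regions on a log scale, points are the 1122 wider regions, the solid line marks equal length and the dashed line 25% more. The chosen regions form the upper edge of the cloud, and most shared regions lie below the line of equal length because the longest of 3 values is set against the shortest of 3.

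The wider regions were short before mitogen removal and of ordinary length after it. Their median summed length was 267, 253.5 and 205 bp in PROLIF replicates 1, 2 and 4. It was 522.5, 563.5 and 577 bp in DIFF replicates 1, 2 and 4. Over all shared regions the medians were 600.5, 574 and 477 bp in PROLIF and 525, 556 and 595 bp in DIFF, so the wider regions stood at less than the usual length in each PROLIF library and close to it in each DIFF library. The narrower regions had the mirrored pattern, with medians of 533 to 614 bp in PROLIF and 242 to 264 bp in DIFF.

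**Figure D2:**
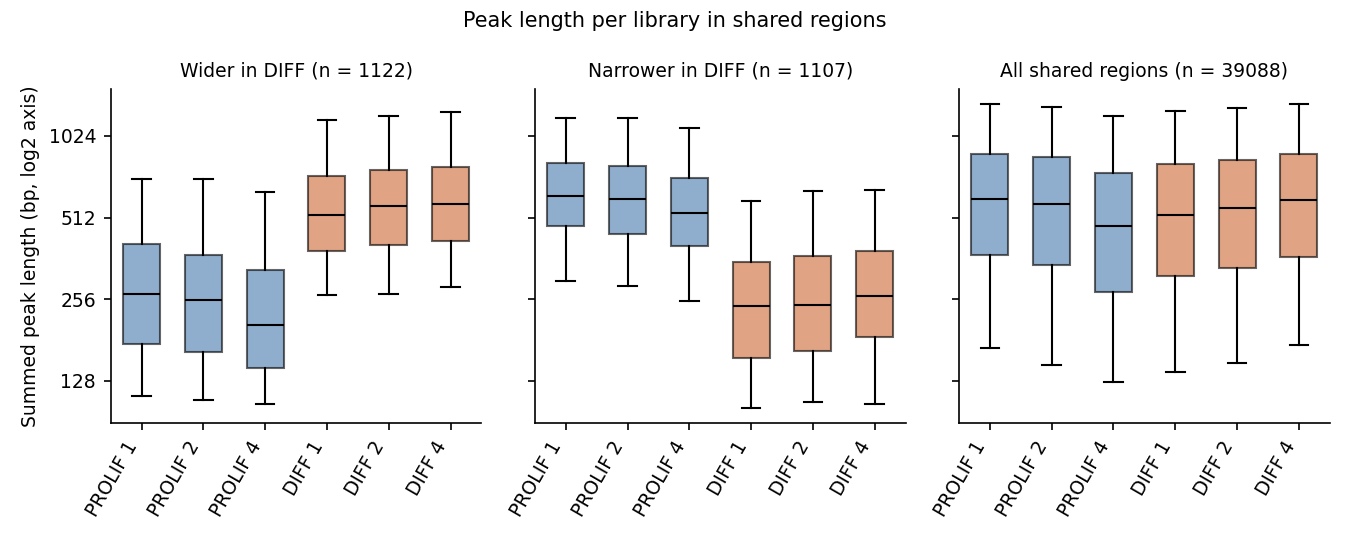
Summed peak length per library (bp, log2 axis) in the wider regions, the narrower regions and all shared regions. Lines are medians, boxes span the quartiles and whiskers the percentiles 5 to 95, in PROLIF (blue) and DIFF (orange). In the wider regions the DIFF medians lie from 522.5 to 577 bp and the PROLIF medians from 205 to 267 bp.

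As a whole the shared regions did not lengthen detectably. The median length averaged 550.5 ± 65.0 bp over the PROLIF libraries (SD, n = 3). Over the DIFF libraries it averaged 558.7 ± 35.1 bp (SD, n = 3), a difference of 8.17 bp that was smaller than the spread between libraries (two-sided exact permutation p = 0.9, where the smallest p possible is 0.1). Without replicate 4 of both states, which removes the deepest DIFF and the shallowest PROLIF library, the difference was -39.5 bp. The rule then kept 2395 wider and 4459 narrower regions, in place of 1122 and 1107. The balance also moved when other libraries were left out. It was 2722 wider and 1292 narrower regions without PROLIF replicate 1, and 2144 and 1451 without PROLIF replicate 2. Between the libraries of replicate 2, which among equal numbers were closest in depth, the median ratio of lengths was 2.02 in the wider regions and 0.986 in all shared regions. It was 1.80 and 0.922 for replicate 1, and 2.47 and 1.18 for replicate 4. In the wider regions the rule itself sets a floor under each of these ratios, also for replicate 2. They describe the choice, and the part of depth in them was not tested.

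Libraries of a state did not contribute equally. DIFF replicate 4 was the longest DIFF library in 524 of the 1122 regions and replicate 2 in 340. PROLIF replicate 4 was the shortest PROLIF library in 589. The shortest DIFF library, which sets the margin, was replicate 1 in 534 regions, and the longest PROLIF library was replicate 1 in 547. The margin had a median of 1.44, its upper quartile was 1.68, and it reached 5.85. It was 2 or more in 133 regions. Without any fold, the DIFF lengths all exceeded the PROLIF lengths in 4329 shared regions (11.1%), and the opposite held in 3639 (9.31%).

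The members with the smallest margins lay nearest to Arhgap42, Ick and Slc30a8, and the shared regions that missed the threshold by least lay nearest to Gm9837, Dennd4a and Pigs. In the Ick region, for example, the PROLIF lengths were 271, 260 and 284 bp and the DIFF lengths 355, 575 and 906 bp. In the Dennd4a region, outside the set, they were 557, 503 and 533 bp in PROLIF and 865, 800 and 696 bp in DIFF.

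Short regions were kept more often than long ones. The rule kept 4.12% of shared regions with a mean length under 300 bp, 4.13% of those from 300 to 600 bp, 1.55% of those from 600 to 1000 bp and 0.742% of those from 1000 to 2000 bp. The mirrored rule kept 3.15%, 4.54%, 1.55% and 0.590% of them, so the decline was not particular to the wider regions. The mean was taken over the same lengths that the rule used. None of the 113 regions of 2000 bp or more was kept, nor was any of them narrower by the mirrored rule. Of the 1122 regions, 897 had a mean length under 600 bp.

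The wider regions were also taller in DIFF. The fold enrichment of the strongest peak over its local background had a median of 5.84, 4.89 and 4.58 in PROLIF replicates 1, 2 and 4 and of 6.87, 8.18 and 7.27 in DIFF replicates 1, 2 and 4. In all shared regions the medians were 9.36, 7.64 and 6.82 in PROLIF and 6.96, 8.34 and 7.47 in DIFF. The fold enrichment was higher in each DIFF library than in each PROLIF library in 554 wider regions (49.4%), against 7.28% of all shared regions, and lower in each in 7, against 14.3%. Height and length come from the same peaks, so this is not independent of the rule.

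Peaks were also ranked by their -log10 p within their own list, as a percentile. The lists differed in length, from 60006 to 88039 peaks, and in all shared regions the median percentile was 74.8, 69.0 and 65.0 in the PROLIF libraries and 71.0, 70.7 and 76.3 in the DIFF libraries, so percentiles of different lists are not on 1 scale. The median in the wider regions was 51.7, 40.9 and 35.5 in the PROLIF libraries and 68.7, 68.7 and 74.7 in the DIFF libraries. In 789 of the 1122 regions (70.3%) each DIFF library ranked above each PROLIF library, against 21.4% of all shared regions. The reverse order occurred in 3 regions, against 11.7% of all shared regions and 800 of the 1107 narrower regions (72.3%). Rank and length come from the same peaks, so this is not independent of the rule. The best-ranked peak of a region belonged to DIFF replicate 4 in 717 of the wider regions, to the other DIFF libraries in 185 and 175, and to a PROLIF library in the remaining ones.

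**Figure D3:**
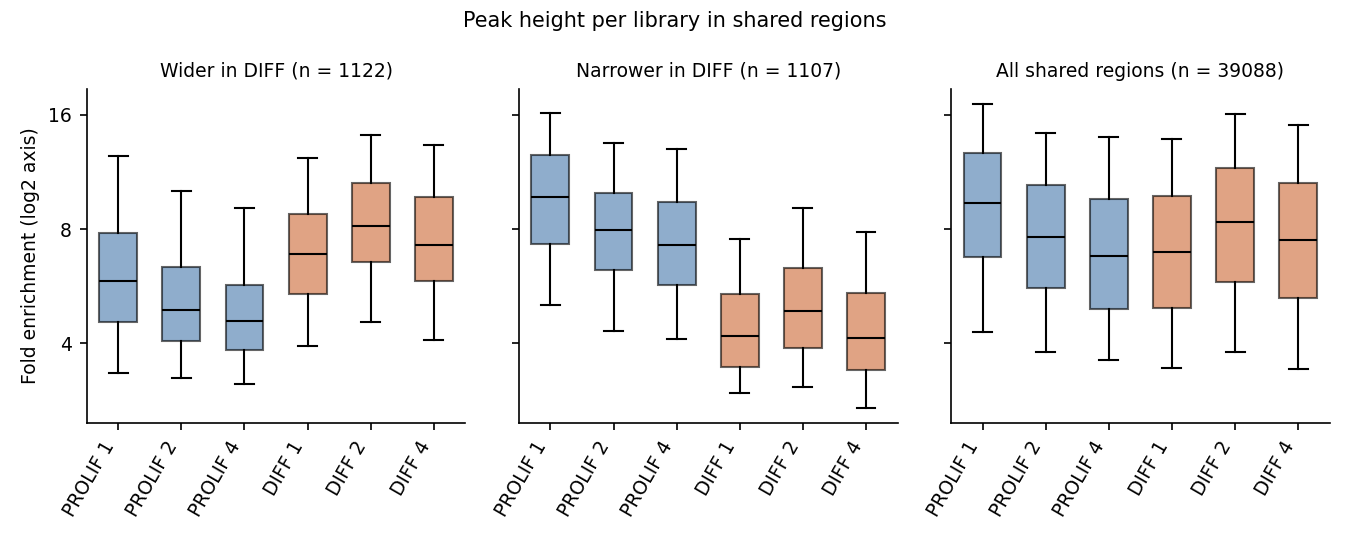
Fold enrichment of the strongest peak per library (log2 axis) in the wider regions, the narrower regions and all shared regions, drawn as medians, quartile boxes and whiskers from percentile 5 to 95. The wider regions have PROLIF medians of 4.58 to 5.84 and DIFF medians of 6.87 to 8.18, and the narrower regions run the other way.

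In most wider regions each library had 1 peak, so the added length there belonged to a longer single peak. A separate region was made of any peak that overlapped no other. Peak counts within regions therefore cannot show whether additional peaks arose beside them. In 904 of the 1122 regions (80.6%) every library had 1 peak, close to the 83.9% of all shared regions. Each DIFF library had more peaks than each PROLIF library in 2 regions, and fewer in 5, against 51 and 45 of all 39088 shared regions. The core open in all 6 libraries had a median of 145 bp. The bases covered in all DIFF and in no PROLIF library, called gained here, had a median of 113 bp (quartiles 62 and 187) and added up to 155746 bp. In 47 regions there were none, because the PROLIF peaks together reached as far as the DIFF peaks had in common.

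In 526 regions (46.9%) at least 80% of the outward gain was on 1 side, and in 594 (52.9%) it was shared between both sides. The shares of all shared regions, which were not chosen for a gain, were 54.7% and 17.1%, and 11025 of these had no outward gain. In the narrower regions the loss was on 1 side in 39.4% and shared between both sides in 60.5%. The summit moved little. The median distance between the typical PROLIF and DIFF summits was 21 bp, against 18 bp in all shared regions, and exceeded 150 bp in 62 regions (5.53%, against 5.82%). In 5 regions all 3 DIFF summits lay outside the PROLIF peaks.

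Most wider regions were distal. Within 3 kb of a start site lay 323 of 1122, or 28.8% (95% Wilson interval 26.2 to 31.5%, for counting error only), against 46.8% of all shared regions and 27.6% of the narrower ones. A start site lay inside 13.0% of the wider, 11.0% of the narrower and 33.8% of all shared regions. Promoter regions are longer, and among regions with a mean length under 600 bp the shares within 3 kb were 24.7% of the wider and 30.2% of all. Of the wider summits, 49.2% were in introns, 40.4% between genes, 6.06% in untranslated exon parts, and 14 summits were in coding exons. The respective shares of all shared regions were 39.6%, 42.1% and 11.8%, with 969 summits in coding exons. Those of the narrower regions were 49.9%, 41.4% and 3.07%, so the intronic share was not particular to the wider ones.

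Members near start sites were longer than those far from them in both states. The 323 near ones had median lengths of 252 to 322 bp in PROLIF and 611 to 636 bp in DIFF. The 799 far ones had 196 to 254 bp in PROLIF and 504 to 560 bp in DIFF. The margins had medians of 1.41 and 1.44. Near start sites the gain fell on the gene's downstream side in 178 regions and upstream in 127, and in 12 regions a start site lay in the gained bases. In the narrower regions near start sites the lost bases fell downstream in 145 and upstream in 133. The GC content had a median of 49.3% in the wider and 52.0% in all shared regions, and the values far from start sites, 48.4% and 48.6%, differed by less. The narrower regions had 48.8%, and 47.8% far from start sites.

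Chromosomes held between 2.13% (chromosome 6) and 4.78% (chromosome 19) of their shared regions as wider ones. Chromosome 19 contributed 46 of its 962 shared regions, while 1.98% of them were narrower. Another wider region lay within 50 kb of 110 wider regions (9.80%), and a wider region lay within 50 kb of 7.42% of all shared regions. A narrower region lay within 50 kb of 82 (7.31%), against 7.33% of all. A region with a peak in all DIFF libraries and in no PROLIF library lay within 50 kb of 24.5%, against 22.0% of all shared regions. A region found in all PROLIF libraries alone lay within 50 kb of 13.2%, against 11.7%.

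The sequence at the summits was described with 23 motifs, searched on both strands in the 200 bases around the summit of the best-ranked peak. Lengths chose the regions and the motifs were not part of the rule, but the shares are given without a test. The NFI site TTGGCA was present in 291 wider regions (25.9%, interval 23.5 to 28.6%), in 20.9% of the narrower and in 17.0% of all shared regions. Far from start sites the shares were 28.5%, 22.6% and 22.3%. Among regions with a mean length under 600 bp they were 27.0% of the wider and 19.3% of all. The full NFI site, TTGGC and GCCAA 5 bases apart, was found in 1 wider region and in 40 shared regions (0.102%).

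Sites of mitogen-linked and proneural factors were less frequent in the wider regions than in the narrower ones. The AP-1 site TGACTCA was present in 28 wider regions (2.50%, interval 1.73 to 3.58%), in 14.7% of the narrower and in 4.57% of all shared regions. Far from start sites it was in 2.88%, 15.7% and 6.04%. The E-box CAGCTG was in 192 wider regions (17.1%), in 35.7% of the narrower and in 8189 of all 39088 shared regions, and in 18.0%, 37.2% and 25.1% of those far from start sites. The E-box CAGATG was in 13.8%, 24.9% and 14.6%. Wider and narrower regions thus differed more from each other in these letters than the wider regions did from all shared regions.

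Other sites had smaller differences or changed with position. The SOX site ACAAAG or ACAATG was in 31.2% of the wider and 26.0% of all shared regions, but far from start sites the order reversed, at 33.0% and 34.0%, and the narrower regions had more in both settings, at 38.9% and 42.1%. The TEAD site ACATTCCA was in 2.41% of the wider and 1.20% of all shared regions, the homeodomain site TAATTA in 5.08% and 3.13%, and the FOX site TGTTTAC in 3.48% and 2.31%. The GC box GGGCGG, a promoter element, was in 11.1% and 25.9%, and far from start sites in 5.38% and 7.32%. The CTCF motif was in 6.42% and 5.71%, and in 7.38% and 7.67% far from start sites, against 3.07% of the narrower regions.

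The remaining sites were less frequent in the wider regions than in all shared ones, were rare, or were near that share. The ETS site CCGGAAG was in 2.23% of the wider and 5.65% of all shared regions, and the BMP SMAD element GGCGCC in 5.53% and 10.0%. Far from start sites the ETS shares were 0.876% and 1.51%, and the BMP SMAD shares 3.50% and 3.99%. The glucocorticoid site, AGAACA and TGTTCT 3 bases apart, was in 1 shared region, which was not a wider one. The CEBP site TTGCGCAA was in 39 shared regions, none of them wider. The CRE site TGACGTCA was in 0.535% and 1.40%, and the E-box CACGTG in 3.57% and 4.84%. Far from start sites the CRE shares were 0.250% and 0.394%, and the CACGTG shares 2.50% and 3.25%. For the RFX site GTTGCC, the STAT site TTCCNGGAA, the TCF site ATCAAAG, the POU site ATGCAAAT and the SRF and MEF2 motifs, the share in all shared regions lay inside the 95% interval of the share in the wider ones.

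**Figure D4:**
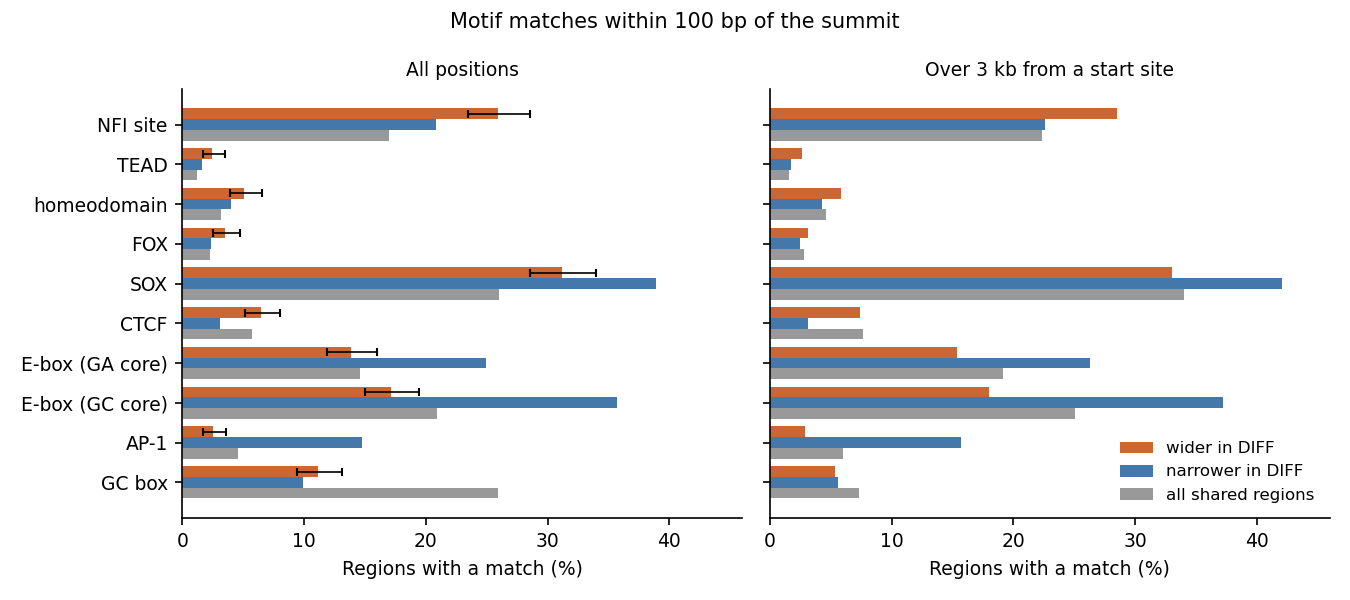
Share of regions (%) with a match within 100 bp of the summit, for 10 of the 23 motifs, at all positions (left) and over 3 kb from a start site (right). Bars show the wider (orange), narrower (blue) and all shared regions (grey), and error bars on the left are 95% Wilson intervals of the wider regions. The E-boxes are labelled by their central bases. The NFI site is at 25.9% of the wider and 17.0% of all regions, and AP-1 at 2.50% of the wider and 14.7% of the narrower ones.

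Within the wider regions, the core and the gained bases differed in composition. The core had a GC content of 53.9% over 218.938 kb and the gained bases 47.7% over 155.746 kb. The NFI site occurred 1.23 times per kb of core and 0.822 times per kb of gained sequence, the SOX site 1.90 and 1.46 times, and AP-1 0.196 and 0.0963 times. The CTCF motif occurred 66 times in the cores and 1 time in the gained bases. The homeodomain site, which is AT-rich, was the other way round, with 0.215 and 0.295 matches per kb. So were the FOX site, with 0.155 and 0.193, and the TCF site, with 0.119 and 0.167. The matches of most motifs were therefore denser under the part of the region that was open in both states. The narrower regions had the same order between core and lost bases for NFI, with 1.13 and 0.567 matches per kb. For SOX they had 2.53 and 1.51, so this order was not particular to the wider regions.

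The members with the largest margins were narrow in every PROLIF library. The first lay in an intron of Gm34609 on chromosome 10 (72070714 to 72071889), 582956 bp from the start of the nearest coding gene, Zwint, so that no gene can be assigned from distance. Its lengths were 88, 105 and 117 bp in PROLIF replicates 1, 2 and 4 and 684, 1176 and 972 bp in DIFF replicates 1, 2 and 4. Its fold enrichment ran from 3.78 to 4.94 in PROLIF and from 6.69 to 11.6 in DIFF, without overlap. The second lay in an intron of Chst10, a sulfotransferase that makes the HNK-1 carbohydrate, on chromosome 1 (38876633 to 38877425), with 157, 127 and 129 bp in PROLIF and 793, 616 and 745 bp in DIFF.

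The third lay in an intron of Rprd1b, 32130 bp from Tgm2, the tissue transglutaminase that cross-links proteins, with 109 to 149 bp in PROLIF and 569 to 637 bp in DIFF. The fourth, in an intron of the myosin light chain gene Myl3, had 95 to 108 bp in PROLIF and 392 to 690 bp in DIFF, and its 3 DIFF libraries held 7 peaks together against 3 in PROLIF. The other members of the first 10 lay near Mansc1, Kctd5, Limch1, Dlgap1, Ephb1 and Galnt10, with margins of 3.46 to 3.55. Dlgap1, a scaffold protein of the postsynaptic density, had the tallest DIFF peaks of these, with a fold enrichment of 11.9 to 15.0 against 3.38 to 5.58 in PROLIF. Ephb1, an ephrin receptor, held an intronic region of 137 to 278 bp in PROLIF and 966 to 1101 bp in DIFF. In these 10, heights overlapped between the states only for Myl3, Tgm2 and Mansc1.

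The strongest members, those with the highest lowest rank over the 6 libraries, were mostly promoters with margins near the threshold. Rufy3, Cttnbp2nl, Rpl27a, Arf4, Bpgm, Ppp6r1 and Ccdc159 each had a start site inside the region, with margins of up to 1.44. The Rpl27a promoter, of a ribosomal protein gene, had 911, 806 and 739 bp in PROLIF and 1156, 1146 and 1172 bp in DIFF. At the promoter of Cttnbp2nl the heights separated as well, with a fold enrichment of 9.62 to 11.7 in PROLIF and 15.5 to 16.1 in DIFF. At Arf4, a small GTPase of the secretory pathway, they did not, with 12.8 to 17.7 and 12.7 to 13.9. Among the distal ones of the 10 were those nearest to Gpr151 and Arap3 on chromosome 18.

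Gene lists for the transition of NSCs to early differentiation held about as many wider regions as other genes. Of 841 shared regions nearest to, and within 100 kb of, a gene of any of the 17 lists, 21 were wider (2.50%) and 27 narrower (3.21%). For all protein-coding genes 932 of 33841 shared regions were wider (2.75%). The 932 regions fell on 880 genes, 50 of which had 2. One gene, Daam1, had 3. Daam1 encodes a formin that assembles actin downstream of noncanonical Wnt signals, and its regions lay in its introns on chromosome 12, 56651 to 67223 bp from the start site. Their lengths were 134 to 215 bp, 234 to 323 bp and 131 to 322 bp in PROLIF, and 368 to 448 bp, 799 to 1014 bp and 616 to 1006 bp in DIFF.

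Among BMP and ID genes, 3 of 60 shared regions were wider (5.00%) and 2 narrower. BMP signals drive astrocyte formation, and ID proteins hold bHLH factors inactive. Id2 had a pair of wider regions. The one 1431 bp from its start site (chromosome 12, 25098571 to 25099606) had 560, 369 and 333 bp in PROLIF replicates 1, 2 and 4 and 969, 986 and 1034 bp in DIFF replicates 1, 2 and 4. All DIFF lengths exceeded all PROLIF lengths by construction, and the fold enrichment, 5.68 to 6.31 in PROLIF and 6.39 to 8.13 in DIFF, did not overlap either. The other, 2994 bp from the start site, had 141 to 218 bp in PROLIF and 352 to 713 bp in DIFF, and its fold enrichment overlapped, at 3.15 to 3.76 and 3.63 to 4.98. Smad6, an inhibitor of BMP signalling, had an intronic region of 151 to 288 bp in PROLIF and 392 to 556 bp in DIFF, also with overlapping fold enrichment, at 6.24 to 7.55 and 7.34 to 7.41.

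The other glial lists had few members. Of 64 shared regions of astrocyte genes 1 was wider and 1 narrower. The wider one lay in a noncoding exon part of Vim, an intermediate filament gene of NSCs and astrocytes, on chromosome 2 (13575691 to 13576487), 1168 bp from a start site, with 511, 381 and 237 bp in PROLIF replicates 1, 2 and 4 and 790, 707 and 755 bp in DIFF. Its fold enrichment overlapped, at 3.62 to 4.81 and 4.14 to 4.66. Of 50 regions of the NFI genes 1 was wider and 2 narrower, with Nfic holding the wider and 1 narrower one. The wider one, in an intron, had 95 to 153 bp in PROLIF and 260 to 379 bp in DIFF. Its fold enrichment did not overlap, at 3.18 to 3.94 and 4.58 to 7.92. Of 37 gliogenic cytokine regions 1 was wider and 1 narrower. The wider one, at Jak2, a kinase of gliogenic cytokine receptors, had 181 to 214 bp in PROLIF and 283 to 433 bp in DIFF. Its fold enrichment overlapped, at 3.76 to 4.34 and 3.95 to 4.53. Of 56 Notch regions 1 was wider and 2 narrower. The wider one, at Heyl, a Notch effector, had 224 to 340 bp in PROLIF and 456 to 748 bp in DIFF. Its fold enrichment did not overlap, at 3.62 to 4.55 and 8.84 to 11.6.

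Of 47 oligodendrocyte regions 2 were wider, near Sox8 and Opalin, and 3 narrower, of which 2 were also nearest to Opalin. The wider Opalin region, in an intron of Tll2, had 109 to 199 bp in PROLIF and 406 to 640 bp in DIFF. Its fold enrichment did not overlap, at 3.34 to 3.87 and 5.84 to 8.25. Of 63 regions of SOX genes 3 were wider and 1 narrower. The wider ones were the same region at Sox8 and 2 in introns of Sox6. The Sox8 region had 104 to 165 bp in PROLIF and 291 to 370 bp in DIFF. Its fold enrichment overlapped, at 2.53 to 3.02 and 2.58 to 2.85. At Sox6, a SOXD factor, the region 26271 bp from the start had 546 to 952 bp in PROLIF and 1245 to 1509 bp in DIFF. Its fold enrichment overlapped, at 5.08 to 7.30 and 5.07 to 7.65, and so did that of the other Sox6 region.

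Cell cycle exit genes had 2 wider and no narrower regions of 46, and cell cycle entry genes had no wider and 3 narrower regions of 58. Over all protein-coding genes 2.75% of the shared regions were wider and 2.59% narrower, and counts this small were not tested against those shares. The wider regions of the exit genes lay at Rbl1 and Rbl2, pocket proteins related to RB1 that repress E2F targets. The Rbl2 promoter, on chromosome 8 (91069627 to 91071123), had 1052, 1023 and 1004 bp in PROLIF and 1339, 1365 and 1352 bp in DIFF. The Rbl1 intron had 547, 226 and 311 bp in PROLIF and 791, 993 and 810 bp in DIFF. The fold enrichment overlapped at Rbl2, with 7.93 to 12.2 in PROLIF and 8.67 to 10.9 in DIFF. It also overlapped at Rbl1, with 10.7 to 18.9 and 13.6 to 17.1. Of 58 regions of mitogen receptor and ERK feedback genes 1 was wider and 2 narrower. The wider one lay at a start site of Fgfr2, an FGF receptor, on chromosome 7 (130264610 to 130266618). It had 1073 to 1256 bp in PROLIF and 1589 to 1780 bp in DIFF. Its fold enrichment overlapped, at 6.58 to 8.35 and 6.24 to 7.74.

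The serum, SRF and YAP list had 4 wider (6.25%) and 5 narrower regions of 64. The wider ones lay at Myl9, a regulatory myosin light chain, at Amotl2, which binds YAP, at Yap1, the coactivator itself, and 53160 bp from Ccn1, a secreted YAP target. The Myl9 region, with a start site inside it, had 294 to 461 bp in PROLIF and 723 to 735 bp in DIFF. The Yap1 region had 159 to 282 bp in PROLIF and 398 to 813 bp in DIFF, and the Ccn1 region had 266 to 410 bp and 529 to 727 bp. The list held both directions in about equal number, and Amotl2 and Ccn1 each also had 1 narrower region.

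Fkbp5, among 25 regions of glucocorticoid targets, and Sesn1, a stress-induced gene among 55 regions of FOXO and quiescence genes, each had 1 wider region. Both lists also had 1 narrower region. The Fkbp5 intron had 190 to 199 bp in PROLIF and 253 to 604 bp in DIFF, with overlapping fold enrichment, at 4.16 to 6.30 and 6.06 to 7.55. The Sesn1 region had 149 to 365 bp in PROLIF and 540 to 702 bp in DIFF, with a fold enrichment of 3.55 to 4.78 and 7.77 to 13.1. The lists of TGF-beta signalling, AP-1 and early response genes, and cholesterol synthesis had no wider region among 42, 50 and 23. Their narrower regions numbered 1, 2 and 0. Over all protein-coding genes 2.75% of the shared regions were wider, and counts this small were not tested against that share.

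**Figure D5:**
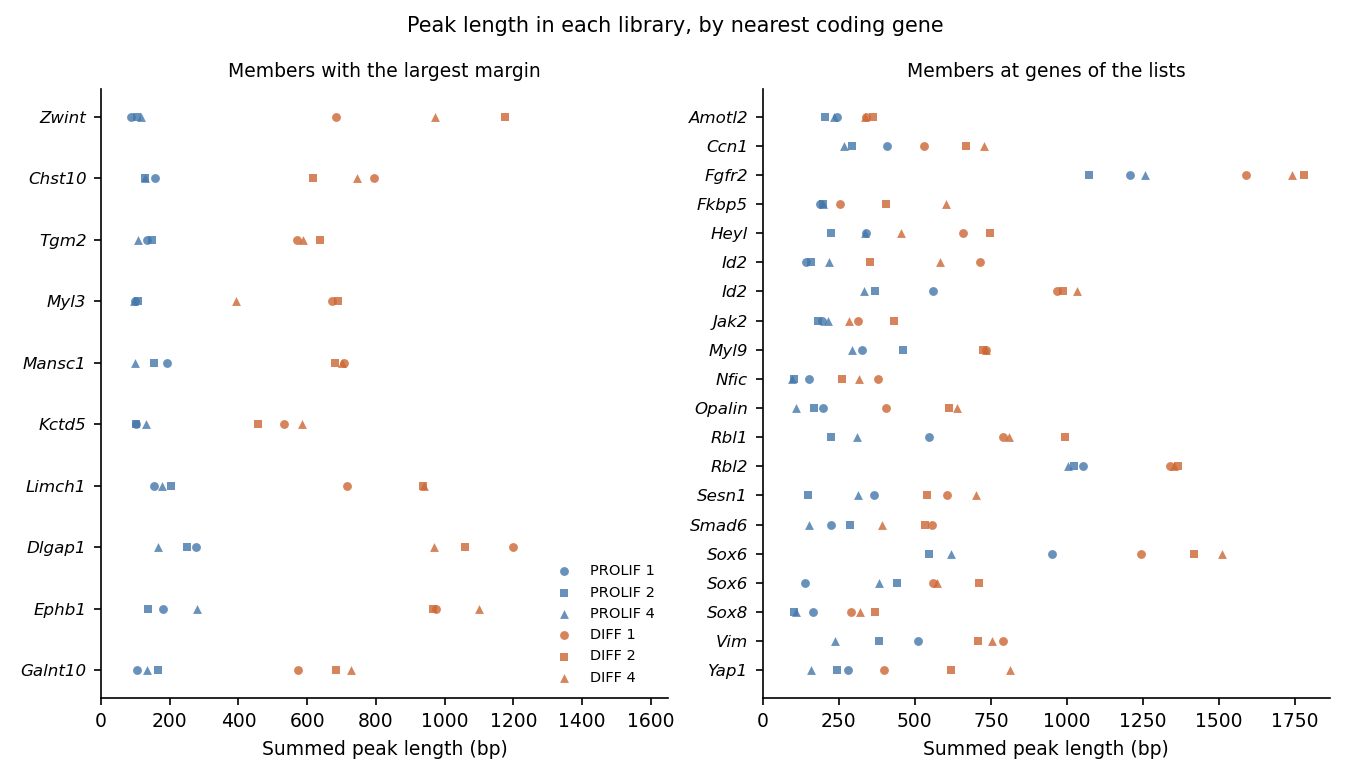
Summed peak length (bp) in each library for the 10 members with the largest margin (left) and for members at genes of the lists (right), named by the nearest coding gene. Circles, squares and triangles are replicates 1, 2 and 4, blue in PROLIF and orange in DIFF. The left panel has all PROLIF lengths under 300 bp, and on the right Rbl2 and Fgfr2 are the long promoters.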

How the data were processed

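Peak lists from ATAC-seq of 6 Srr2del/del SEZ cultures were used, 3 PROLIF and 3 DIFF, with state and replicate number as labelled. Per the study's methods, adapters were removed (Cutadapt), reads trimmed (Trimmomatic) and aligned to GRCm38, also called mm10 (Bowtie2), and duplicates flagged (Picard). The authors then ran MACS2 on each library separately, for narrow peaks, with no shifting model and a false discovery threshold of 0.05. Versions, read extension, any transposase shift and any blacklist are not given in the sources used here, and each can move peak edges. The deposited score is 10 times the -log10 q, rounded down in nearly every line. The fold enrichment that the authors deposited is a ratio, of the pileup at the summit to the background expected there in that library. The deposited -log10 p and q values rest on the same background.

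Peaks overlapping by 1 bp or more were merged on chromosomes 1 to 19. The fold, percentile and summit of a region are those of its peak with the highest -log10 p in that library. Background pileups were solved under the caller's Poisson model from peaks with a -log10 p under 12, and whole reads came back for at least 99.9945% of them, within 0.001 of the deposited -log10 p. Merging, rule and motif search were tested on simulated data. The GENCODE M21 annotation (GRCm38) gave start sites, exons and genes, whereas the study used another release. Sequences were read from the GRCm38 reference.

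The members and the gene lists were chosen with earlier results of these data known. Named regions were the 10 with the largest margin, the 10 with the highest lowest percentile, 3 on each side of the threshold, genes with 3 or more members and members at list genes. The lists held 239 genes, of which 234 are annotated on these chromosomes. Only the median length of shared regions was tested, by two-sided exact permutation over libraries, and its p measures the spread between libraries. Read totals were not used here, and a planned item is not reported here. The study describes RNA-seq and ATAC-seq as paired on the same cultures, in both states. It does not state which PROLIF and DIFF libraries share a culture, and the labels do not tie the numbers. Libraries were therefore not paired in the main comparison. Software was Python (3.11.15) with pandas (2.3.3), numpy (2.4.6), scipy (1.17.1), statsmodels (0.14.6), pysam (0.24.0) and matplotlib (3.10.9).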

Additional observations from a re-analysis of the deposited data

How the results depend on the processing

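The count of wider regions stayed within 1.5 times with q of 0.01 (1106) or 0.001 (937), lists of equal length (928), the distance from first to last base (1066) and chromosome X (1134). Under these settings except chromosome X, which was not compared, 78.0% to 97.7% of the 1122 regions overlapped a wider one. Leaving out 1 library relaxes the rule and gave 1387 to 2722 wider and 1292 to 2447 narrower regions, 27.2% to 31.5% within 3 kb, and a median length difference of -21.0 to 34.7 bp. That difference reversed without PROLIF replicate 4 (-21.0 bp) and without DIFF replicate 4 (-10.7 bp). Other folds gave, as wider and narrower, 2182 and 2023 (1.1), 456 and 515 (1.5), and 4329 and 3639 (any fold without overlap). A cover of at least 50% of the region in every library left 106 and 88. A promoter distance of 1 kb gave 17.9%.

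With the replicate block, each DIFF library was set against the PROLIF library of its number, and 1936 wider and 1855 narrower regions passed, with 30.0% of the wider within 3 kb and the same 8.17 bp difference (exact sign-flip p = 1, where 0.25 is the smallest possible). Length deviations correlated at 0.0325, 0.0760 and 0.0280 for equal numbers and at -0.0609 to 0.0253 for different ones. Each value for equal numbers was above each for different ones, but all were small. Whether equal numbers mark the same culture was not tested.

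After the data were seen, libraries were also compared within the lower and the higher input data numbers in the peak names, with 4658 and 8664 wider, 7010 and 6279 narrower regions and differences of -17.5 and 11.0 bp. Without replicate 4 there were 2395 wider and 4459 narrower regions and a difference of -39.5 bp (exact permutation p = 0.333, the smallest possible). These use fewer libraries, so their rule is looser.

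The excess of the SOX site over all shared regions, 5.18 percentage points, reversed to -0.97 far from start sites. Of the 69 motif values under alternatives, 52 stayed within the counting interval and 16 moved beyond it. Among these the TCF site also changed sign, from 0.44 to -0.48 far from start sites. A peak missing from a list is a signal under the threshold, and peak edges depend on depth.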
